A study of Mus musculus with 13 samples.

Results

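The levels of 4 mature microRNAs, mmu-miR-21-5p, mmu-miR-21-3p, mmu-miR-221-3p and mmu-miR-222-3p (mmu for the mouse, left off from here on), were followed across 13 mouse neuroblastomas. They were chosen by name, as the arms of miR-21 and the leading arms of the miR-221 and miR-222 pair that are known as oncogenic microRNAs, and are 4 of the 1079 mouse miRNAs on the array. The tumours were primary abdominal neuroblastomas of TH-MYCN mice, in which the tyrosine hydroxylase promoter drives the MYCN oncogene in cells of the sympathetic lineage. In 6 tumours (wild-type replicates 1 to 6) caspase-8 was wild type and the bone marrow held no metastasis. In the other 7 (deficient replicates 1 to 7) caspase-8 was deficient and the bone marrow held metastases. Genotype and metastasis thus changed together and cannot be told apart. The sources used here do not give the caspase-8 allele, the cells in which it was lost, or the age and sex of the mice. The labels call the tumours biological replicates. Caspase-8 itself is a protein-coding gene that a miRNA array does not measure, so the genotypes were taken from the labels.

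miRNAs are short RNAs that guide Argonaute proteins to messenger RNAs, mainly through the seed, bases 2 to 8 of the mature strand. Each hairpin precursor gives a 5p and a 3p arm, of which one usually accumulates and the other is mostly degraded. miR-21 lies within the transcription unit of Vmp1 and is induced by growth factor and inflammatory signals. Its 5p arm is known to repress the tumour suppressor Pdcd4, and it is abundant in many tumours, in activated fibroblasts and in myeloid cells. miR-221 and miR-222 are made from a shared primary transcript on the X chromosome and are known to repress the cell cycle inhibitor Cdkn1b and the receptor Kit.

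The mature sequences show which members can act on the same targets. They are taken from RefSeq with coordinates of the GRCm38.p6 assembly, 5′ to 3′, with the seed in capitals, and all 4 members matched a RefSeq entry by name. The RefSeq name of miR-21 in the mouse is miR-21a.
miR-21-5p: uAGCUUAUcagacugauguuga
miR-21-3p: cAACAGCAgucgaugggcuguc
miR-221-3p: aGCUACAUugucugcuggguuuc
miR-222-3p: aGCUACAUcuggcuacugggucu
miR-1928: aGCUACAUugccagcuc
miR-21-5p (chr11:86584120-86584141) and miR-21-3p (chr11:86584082-86584103) are the arms of a single hairpin on the minus strand. miR-221-3p (chrX:19146307-19146329) and miR-222-3p (chrX:19146901-19146923) lie on the minus strand too, and their hairpin genes are 504 bases apart with no gene annotated over them other than themselves. The 3p arms of miR-221 and miR-222 are identical over their first 8 bases and then match at only 3 of 15 positions, so that they share a seed and differ in the rest of the strand. The miR-21-5p and miR-221-3p sequences match at 4 of 22 positions without gaps. miR-1928 is shown because it has the seed of miR-221-3p and miR-222-3p, and it was detected in 0 of the 13 tumours. The array also carried miR-590-5p, which was listed for the seed or name of miR-21 and was detected in 0 tumours. Its sequence is not shown here. miR-21c has the seed of miR-21-5p and was not on the array.

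The scanner software detected 338 to 469 mouse miRNAs per tumour. The 75th percentile of signal by which each array was scaled ran from 851 to 1929 intensity units. The arrays lay on 2 slides that each held both groups unequally: slide 1 had 2 wild-type and 5 deficient tumours, and slide 2 had 4 wild-type and 2 deficient tumours. Of 10 miRNAs of the neural lineage listed as a check of the tissue, all 10 were detected in at least 12 tumours, among them miR-7a-5p, a miRNA of neuroendocrine cells, and miR-375-3p, which is known from the same cells. No tumour lacked the neural miRNAs as a group: the mean of the list lay between 7.55 and 9.36 on the log2 scale in every tumour.

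miR-21-5p was bright in every tumour, and its level differed more between tumours of 1 group than between the groups. Its scaled signal, the background-subtracted intensity after scaling of the arrays, was 4791 at the lowest, 8974 at the median and 18417 at the highest in wild-type tumours. In deficient tumours it was 3941 at the lowest, 7929 at the median and 14305 at the highest. Wild-type replicate 5 was the highest and deficient replicate 2 the lowest of all, 4.67-fold apart, and the groups overlapped over most of their range. On the log2 scale wild-type tumours had a mean of 13.14 ± 0.71 (SD, n = 6) and deficient tumours one of 12.97 ± 0.57 (SD, n = 7). The difference, deficient minus wild type, was −0.17 (SE 0.34, 95% interval −0.90 to 0.56), with an adjusted p of 0.895 by limma. Both probes of miR-21-5p, with 20 spots each, had every spot well above background on all 13 arrays, and they gave differences of −0.14 and −0.25. In whole tumours, fewer cells that make a miRNA and less of it per cell cannot be told apart.

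**Figure D1:**
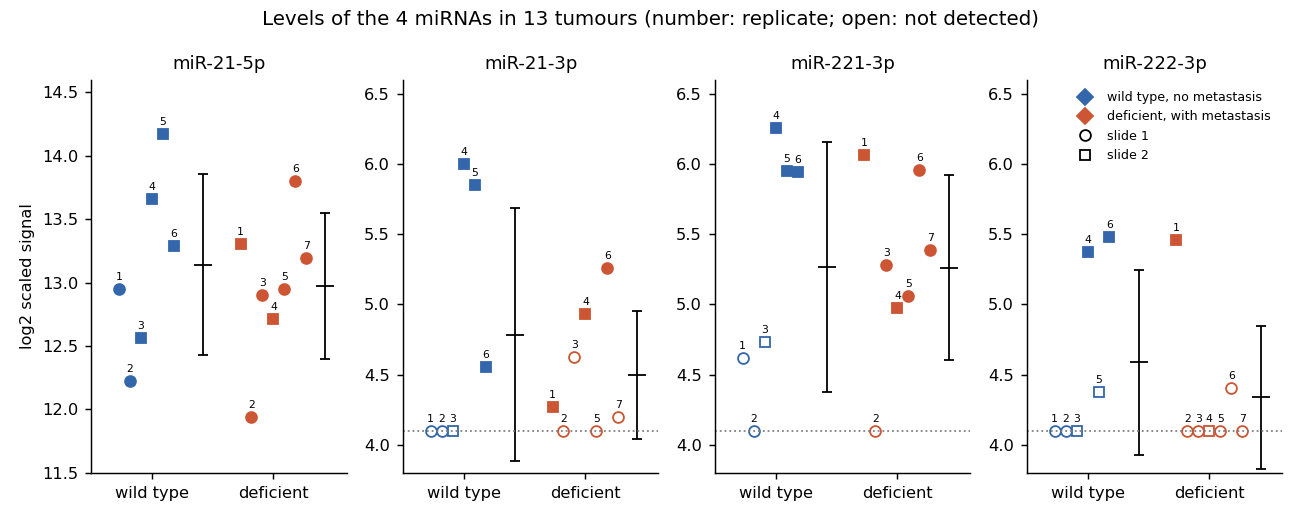
Log2 scaled signal of the 4 miRNAs in each tumour, with the replicate number above each point, circles for slide 1, squares for slide 2 and open symbols where the scanner software did not detect the miRNA. Bars are the mean and SD of 6 wild-type and 7 deficient tumours, and the dotted line is the floor of 4.10. miR-21-5p was detected in all 13 tumours and the other 3 miRNAs lie near the floor in part of them, with the groups overlapping in each panel.

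miR-21-3p, the partner arm of miR-21-5p, lay close to background and was detected in 6 tumours, 3 of 6 wild-type and 3 of 7 deficient. Its scaled signal was −10.2 at the lowest, 14.2 at the median and 64.1 at the highest in wild-type tumours, where a negative value is a signal under the local background. In deficient tumours it was −7.40 at the lowest, 19.3 at the median and 38.2 at the highest. Signals under 17.2 were set to that floor, 4.10 on the log2 scale, which held 5 of the 13 tumours. Wild-type replicates 4 and 5 were the highest, and the lower part of both groups lay at or just above the floor. The log2 means were 4.78 ± 0.90 (SD, n = 6) and 4.50 ± 0.45 (SD, n = 7), a difference of −0.29 (SE 0.36, 95% interval −1.07 to 0.49, limma adjusted p = 0.766). Of its 4 probes, 2 were under the floor in all 13 tumours.

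miR-221-3p was detected in 9 tumours, 3 of 6 wild-type and 6 of 7 deficient. Its scaled signal was 11.7 at the lowest, 44.0 at the median and 76.5 at the highest in wild-type tumours. In deficient tumours it was 13.5 at the lowest, 38.9 at the median and 67.0 at the highest. The wild-type tumours fell apart into replicates 4, 5 and 6, at 61.5 to 76.5, and replicates 1, 2 and 3, at 11.7 to 26.6, while 4 deficient tumours lay between these sets. The log2 means were 5.27 ± 0.89 (SD, n = 6) and 5.26 ± 0.66 (SD, n = 7). The difference was −0.004 (SE 0.40, 95% interval −0.87 to 0.86, limma adjusted p = 0.995), an interval that holds changes of either sign. The brighter of its 2 probes was above the floor in 10 tumours and the dimmer in 5.

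miR-222-3p, the seed partner of miR-221-3p, was detected in 3 tumours, which were wild-type replicates 4 and 6 and deficient replicate 1. Its scaled signal was −8.20 at the lowest, 13.0 at the median and 44.6 at the highest in wild-type tumours, and 7.95, 15.5 and 44.0 in deficient tumours. The 3 tumours in which it was detected stood between 41.5 and 44.6 and the next highest was at 21.2. It lay at the floor in 8 of 13 tumours and was detected on fewer than the 6 arrays that testing required. Its log2 means of 4.59 ± 0.66 (SD, n = 6) and 4.34 ± 0.51 (SD, n = 7), a difference of −0.25, are therefore given as a description. The other arms of the pair, miR-221-5p and miR-222-5p, were each detected in 0 of 13 tumours and lay at the floor in all of them.

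Detection was nested among the members. All 6 tumours with miR-21-3p and all 3 with miR-222-3p also had miR-221-3p, 3 tumours had all 4 miRNAs, and 4 had miR-21-5p alone. The 5 tumours highest in miR-21-5p (wild-type replicates 4, 5 and 6 and deficient replicates 1 and 6) were also the 5 highest in miR-221-3p and the 5 highest in miR-222-3p, and miR-21-3p shared 3 of them. Wild-type replicate 2 and deficient replicate 2 were the lowest pair for miR-21-5p and were the 2 tumours at the floor for miR-221-3p, and both were among the 5 at the floor for miR-21-3p. Of the 13 arrays, those of these 2 tumours had the fewest detected miRNAs (338 and 375) and the lowest 75th percentiles (851 and 1000). Any part of depth in this ordering was not tested. The spread over the 13 tumours was moderate: the SD on the log2 scale was 0.62 for miR-21-5p, 0.68 for miR-21-3p, 0.74 for miR-221-3p and 0.57 for miR-222-3p, against a median of 0.53 over the 419 miRNAs tested.

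The design asks whether the members differ between wild-type tumours without and deficient tumours with bone marrow metastasis. Of the 3 members that could be tested, 0 passed an adjusted p of 0.05, and over all 419 tested miRNAs 0 were called (0%) by limma. At an unadjusted p under 0.05 there were 16 of 419 (3.82%), and 0 of the 3 members were among them. All 3 had lower means in deficient tumours, as did 192 of the 419 (45.8%). Between them the 95% intervals of the 3 members held log2 differences from −1.07 to 0.86.

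Levels of the tested members were on average higher on slide 2, but none passed adjustment between the slides. miR-21-3p was detected in 1 of 7 tumours on slide 1 and 5 of 6 on slide 2, miR-221-3p in 4 of 7 and 5 of 6, and miR-222-3p in 0 of 7 and 3 of 6. With all miRNAs counted, 338 to 433 were detected per array on slide 1 and 383 to 469 on slide 2. With the group as a block, slide 2 minus slide 1 was 0.43 (SE 0.36) for miR-21-5p, 0.57 (SE 0.38) for miR-21-3p and 0.84 (SE 0.38) for miR-221-3p, the last with an unadjusted limma p of 0.0472 and an adjusted p of 0.758. Over all miRNAs 0 of 419 differed between slides after adjustment and 26 did before it. In the same fit 50.8% of the 419 were higher on slide 2. The direction of each group difference turned with the slide. Within slide 1 deficient minus wild type was 0.37 for miR-21-5p, 0.36 for miR-21-3p and 0.80 for miR-221-3p, and within slide 2 it was −0.41, −0.53 and −0.20. A test of this turn by the interaction of group and slide gave limma p values of 0.30, 0.258 and 0.206 (adjusted 0.911, 0.879 and 0.868), so that the turn itself was within the error. With slide as a block the differences were −0.005, −0.07 and 0.32, and 0 of 419 miRNAs were called (12, or 2.86%, unadjusted). The direction for miR-221-3p therefore depended on whether slide was in the fit.

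**Figure D2:**
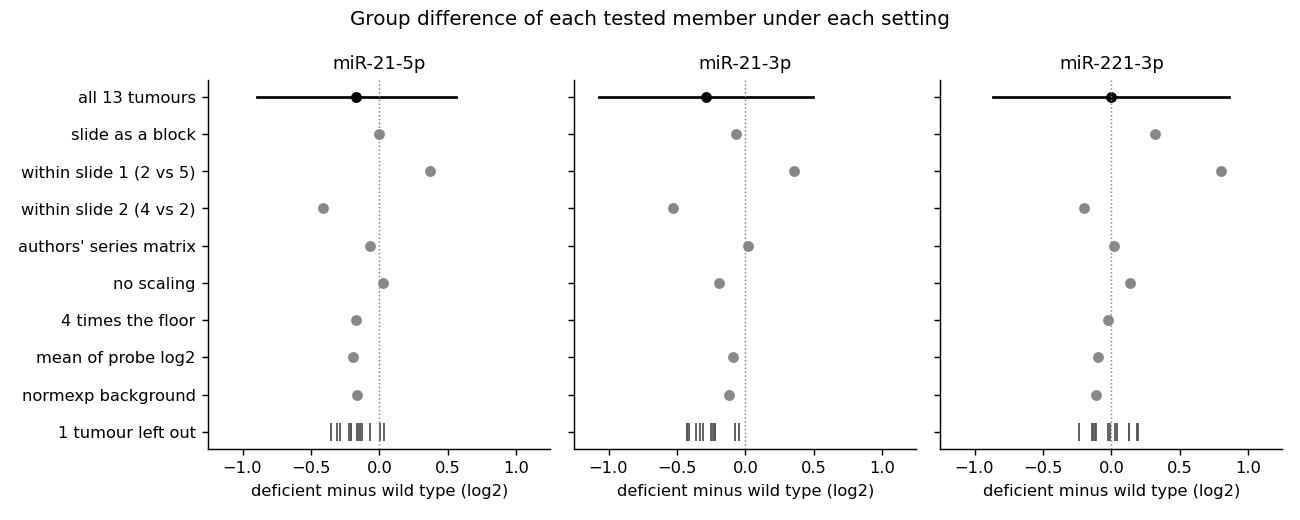
Deficient minus wild-type difference on the log2 scale for the 3 tested members, with the 95% interval of the difference over all 13 tumours (black) and the value under other settings (grey). The bottom line has 1 tick for each tumour left out. Points lie on both sides of 0 for each member, from −0.53 to 0.80 between the settings shown. miR-21-3p has no point at 4 times the floor because all its values lie under it, and that of miR-221-3p rests on wild-type replicate 4 alone.

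Ratios within a tumour were compared next, since above the floor they do not depend on how arrays are scaled. The arm difference, miR-21-5p minus miR-21-3p on the log2 scale, had a mean of 8.36 ± 0.44 over the 6 wild-type tumours (SD) and of 8.48 ± 0.53 over the 7 deficient ones. These values use different probes and measure the change of the ratio between tumours, not the ratio of the arms. They differed by 0.12 between the groups (two-sided exact permutation p = 0.661, adjusted p = 0.874 over 3 such differences). miR-221-3p minus miR-222-3p was 0.68 ± 0.52 in wild-type and 0.92 ± 0.51 in deficient tumours, 0.25 apart (exact permutation p = 0.402, adjusted p = 0.874). miR-21-5p minus the mean of miR-221-3p and miR-222-3p differed by −0.04 (exact permutation p = 0.874, adjusted p = 0.874). The group means of each ratio thus lay within 1 SD of each other, and floor values enter all 3 ratios: both arms of miR-21 were above the floor in 8 tumours, and both miR-221-3p and miR-222-3p in 5.

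While the groups did not separate the members, the tumours did. miR-21-5p and miR-221-3p, which come from different chromosomes, rose and fell together over the 13 tumours with a Pearson r of 0.90 (permutation p = 1e-05, the smallest that 100000 permutations can give, adjusted p = 6e-05 over 6 pairs) and a Spearman rho of 0.91 (permutation p = 6e-05, adjusted p = 0.00036). The r was 0.94 within slide 1, 0.82 within slide 2, 0.88 within wild-type and 0.94 within deficient tumours, and 0.91 without the 2 tumours farthest from the median of miR-21-5p. Within slide 2 and within wild-type tumours the relation did not pass adjustment. In the 11 tumours with both above the floor, the log2 ratio of the pair had an SD of 0.34. The relation held on the authors' series matrix values (r = 0.84), but not with normexp background correction (r = 0.14, adjusted permutation p = 0.641). Under that correction a constant was added before scaling, and the levels of the dim members then followed the inverse of the scaling factor (r of the level with the 75th percentile −0.90 for miR-21-3p, −0.70 for miR-221-3p and −0.81 for miR-222-3p, against 0.49 for miR-21-5p). The part of this in the 0.14 was not tested.

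The arms of miR-21 share a hairpin, and the seed partners miR-221-3p and miR-222-3p share a transcript. Their correlations were not tested against that of miR-21-5p with miR-221-3p. For miR-21-5p and miR-21-3p r was 0.74 (permutation p = 0.00345, adjusted p = 0.00894; rho 0.71, adjusted p = 0.0106), 0.71 within slide 1, 0.75 within slide 2, and 0.64 without the 2 farthest tumours (adjusted permutation p = 0.0665). The r of the arms was 0.88 in wild-type and 0.50 in deficient tumours, a difference that was not tested, and −0.18 with normexp background. For miR-221-3p and miR-222-3p r was 0.73 (permutation p = 0.00447, adjusted p = 0.00894; rho 0.81, adjusted p = 0.00438), with 0.65 and 0.83 within slides 1 and 2, 0.81 and 0.65 within wild-type and deficient tumours and 0.78 without the 2 farthest tumours. Of the tested miRNAs, 96.4% had a lower r with miR-21-5p than its partner arm had. With miR-21-3p as the reference this share was 99.8%. For miR-221-3p 95.7% lay under its r with miR-222-3p, and for miR-222-3p 99.5% lay under its r with miR-221-3p. On the series matrix values r was 0.84 for the arms and 0.87 for the seed partners. With normexp background the seed partners had 0.94. Under that correction both of their levels fell as the 75th percentile rose (r −0.70 and −0.81), and the part of this in the 0.94 was not tested. Within a slide or a group of 6 or 7 tumours the adjusted exact permutation p of both pairs was above 0.05.

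The remaining pairs joined arms of different hairpins. miR-21-3p and miR-221-3p had an r of 0.68 (permutation p = 0.0103, adjusted p = 0.0154; rho 0.78, adjusted p = 0.00534), which was 0.77 within slide 1 and 0.51 within slide 2, and 0.54 without the 2 farthest tumours. Without wild-type replicate 4 it was 0.60 and no longer passed (adjusted permutation p = 0.0553). miR-222-3p did not pass with miR-21-5p by Pearson's measure (r = 0.47, adjusted permutation p = 0.132) and did by rank (rho 0.75, adjusted p = 0.00646). The same held for miR-222-3p with miR-21-3p (r = 0.36, adjusted permutation p = 0.222; rho 0.59, adjusted p = 0.0351). With 8 of its 13 values at the floor, miR-222-3p orders few of the tumours.

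**Figure D3:**
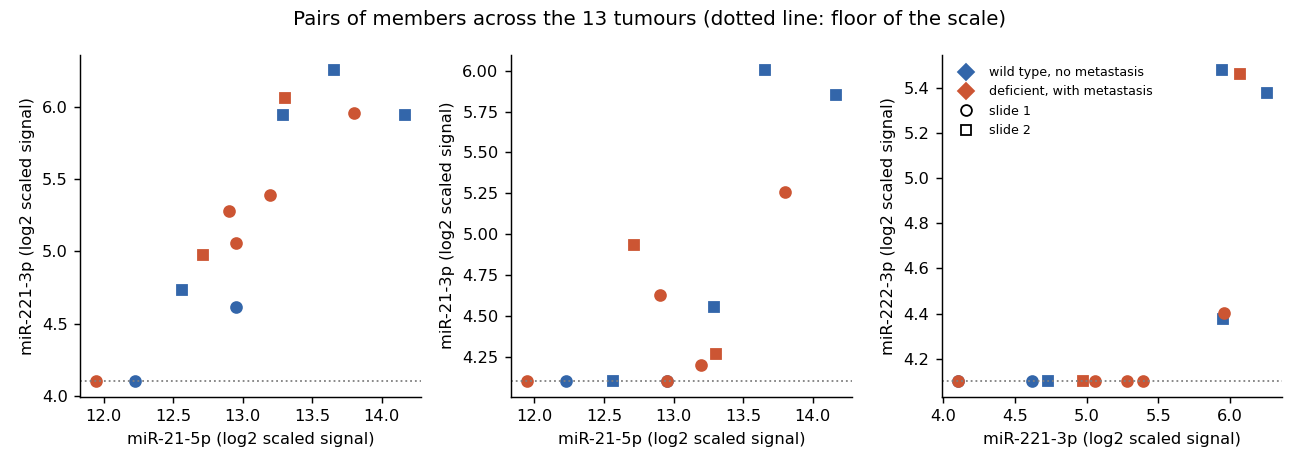
Log2 scaled signal of 3 pairs of members, 1 point per tumour, coloured by group and shaped by slide, with the floor of 4.10 dotted. miR-221-3p climbs with miR-21-5p over the whole range (r = 0.90), whereas miR-21-3p lies at the floor in 5 tumours and miR-222-3p leaves it only in the 5 tumours highest in miR-221-3p.

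Whole tumours hold leukocytes, stroma and vessels besides tumour cells, and levels of the members were set beside lists of miRNAs of these cells. Each list was summarised per tumour by the mean log2 level of its tested members, and 20 correlations (4 members with 5 lists) were computed and adjusted together. The lists were chosen with earlier results of these data known. miR-21-5p followed the leukocyte list with an r of 0.90 (permutation p = 2e-05, adjusted p = 4e-04) and a rho of 0.95 (adjusted p = 2e-04). The r was 0.94 within slide 1, 0.88 within slide 2, 0.95 within wild-type and 0.85 within deficient tumours, 0.91 without the 2 farthest tumours, 0.91 on the series matrix values and 0.78 with normexp background. Within slide 2 the relation did not pass adjustment. Of 7 listed leukocyte miRNAs 6 were tested and none was undetected throughout: the list mean ran from 7.09 to 9.77 in wild-type and from 7.28 to 9.09 in deficient tumours. Among its brightest members, miR-142-3p, found across blood cells, had an r of 0.79 with miR-21-5p and miR-342-3p one of 0.52. miR-223-3p, a miRNA of myeloid cells, had 0.93.

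miR-221-3p followed both the leukocyte and the stroma list. With leukocytes its r was 0.80 (permutation p = 0.00078, adjusted p = 0.00553; rho 0.87, adjusted p = 0.0021), 0.91 within slide 1, 0.68 within slide 2, 0.74 within wild-type and 0.89 within deficient tumours. With stroma it was 0.81 (permutation p = 0.00083, adjusted p = 0.00553; rho 0.78, adjusted p = 0.0169), 0.97 within slide 1, 0.58 within slide 2, 0.76 within wild-type and 0.96 within deficient tumours, and 0.74 without the 2 farthest tumours (adjusted permutation p = 0.0603). Neither relation passed adjustment within slide 2 or within wild-type tumours. The stroma list had all 7 members tested, with means from 6.61 to 8.48 in wild-type and 6.93 to 8.36 in deficient tumours. Its brightest members were miR-22-3p, with an r of 0.94 with miR-221-3p, and miR-199a-3p, a miRNA of mesenchymal cells, with 0.63. Over the 7 members r ran from 0.40 (miR-145-5p) to 0.94. Of all tested miRNAs, the list's miR-22-3p and miR-214-3p had the highest r with miR-221-3p. With normexp background these relations of miR-221-3p no longer passed (r = 0.52 with leukocytes and 0.08 with stroma).

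miR-21-5p with stroma and both miRNAs with the vessel list passed more narrowly. miR-21-5p with stroma had an r of 0.72 (permutation p = 0.00584, adjusted p = 0.0292; rho 0.75, adjusted p = 0.0206), which was 0.94 within slide 1 and 0.34 within slide 2, where it did not hold. Omitting any of wild-type replicates 2 and 3 and deficient replicates 2 and 6 brought its adjusted p above 0.05 (r between 0.65 and 0.70). The vessel list, miR-126-3p and miR-126-5p of endothelial cells, had an r of 0.68 with miR-21-5p (permutation p = 0.0107, adjusted p = 0.038; rho 0.59, adjusted p = 0.0964) and of 0.67 with miR-221-3p (permutation p = 0.0114, adjusted p = 0.038; rho 0.57, adjusted p = 0.0977). These were 0.89 and 0.89 within slide 1, 0.45 and 0.58 within slide 2, and 0.54 and 0.46 without the 2 farthest tumours. Without deficient replicate 2, the tumour lowest in the vessel list, they were 0.51 and 0.54 and did not pass. Omission of wild-type replicates 2 and 3 or of deficient replicate 6, each alone, had the same effect (0.64 to 0.66), and for miR-221-3p so did that of wild-type replicate 5 (0.67) and of deficient replicate 1 (0.62).

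The other relations with lists did not pass adjustment by Pearson's measure, and of these miR-222-3p with stroma passed by rank (rho 0.70, adjusted permutation p = 0.0422). miR-21-5p had an r of 0.19 with the erythroid list (miR-451 and miR-144-3p, miRNAs of red cell precursors) and of −0.13 with the muscle list (4 miRNAs led by miR-133b-3p and miR-1a-3p), and miR-221-3p had 0.42 and −0.13. miR-21-3p with leukocytes had an r of 0.60 (adjusted permutation p = 0.0881), and it passed on the series matrix values (r = 0.75) and without deficient replicate 1 (0.71) or 4 (0.68). miR-222-3p had 0.59 with the erythroid list (adjusted permutation p = 0.0903) and 0.53 with stroma (adjusted permutation p = 0.141), and both passed on the series matrix values (r = 0.64 and 0.77). Neither the share of each cell type in the tumours nor its part in the levels of the members was tested.

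**Figure D4:**
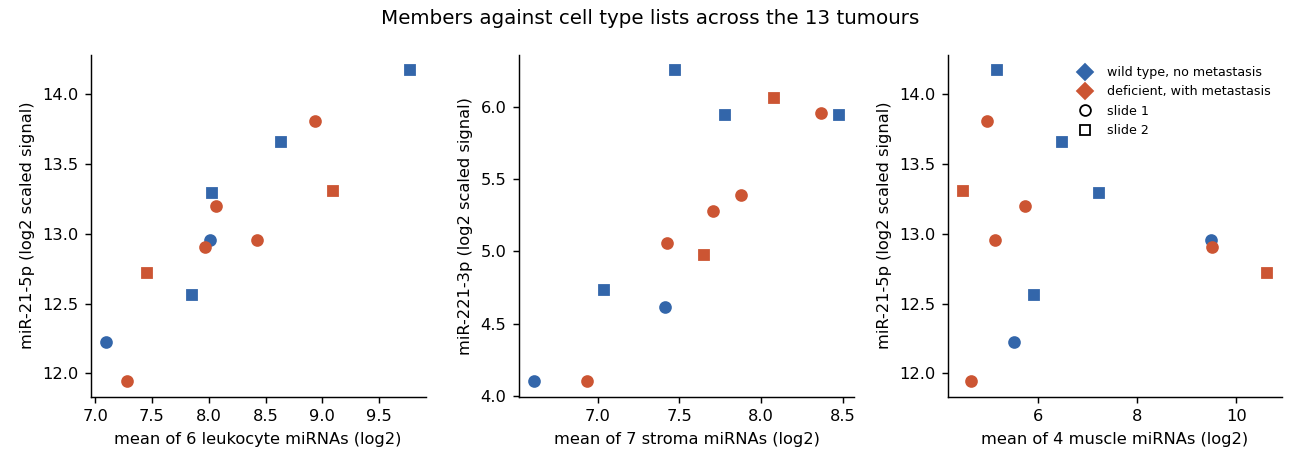
Each point is a tumour: the mean log2 level of the leukocyte list against miR-21-5p, of the stroma list against miR-221-3p, and of the muscle list against miR-21-5p. The first 2 panels run upward (r = 0.90 and 0.81) with both groups mixed along the trend, and the third has no trend (r = −0.13).

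**Figure D5:**
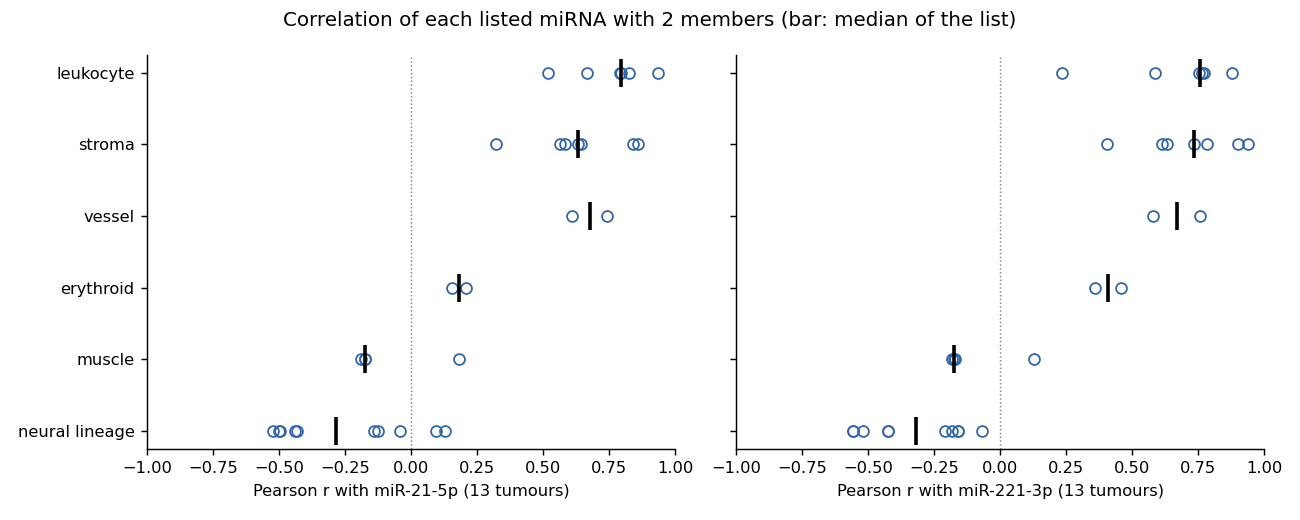
Pearson r over 13 tumours of each tested miRNA of 6 lists with miR-21-5p (left) and miR-221-3p (right), 1 circle per miRNA, with a bar at the median of the list. All circles of the leukocyte, stroma and vessel lists lie above 0 for both miRNAs, and the neural lineage list lies mostly below it.

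No miRNA of the cell type lists passed between the groups. By limma 0 of the 6 leukocyte miRNAs passed, with 2 higher and 4 lower in deficient tumours and a median difference of −0.04, against a median of 0.04 over all 419. Of the 7 stroma miRNAs 0 passed, with 6 higher, 1 lower and a median of 0.20, and 1 had an unadjusted p under 0.05. In the vessel list 0 of 2 passed, with both higher. The erythroid list had the largest median of these lists, 0.83, with 0 of 2 called and both higher: miR-451 differed by 0.95 (SE 0.50) and miR-144-3p by 0.72 (SE 0.44), and the list mean ran from 9.63 to 13.1 in wild-type and from 11.7 to 13.5 in deficient tumours. In the muscle list 0 of 4 were called, with 2 higher, 2 lower and a median of −0.03. The neural lineage list had 0 of 10 called, with 2 higher and 8 lower, a median of −0.28 and 2 at an unadjusted p under 0.05, and its brightest members miR-7a-5p and miR-375-3p differed by −0.50 (SE 0.25) and −0.14 (SE 0.33).

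Across all tested miRNAs, the ones most like a member in pattern were found by Pearson r over the 13 tumours, as a description. For miR-21-5p they were miR-223-3p (r = 0.93), miR-221-3p (0.90) and miR-10a-5p (0.89), which lies in a Hox cluster, against a median r of 0.01 over 418 miRNAs. For miR-221-3p they were miR-22-3p (0.94), miR-214-3p (0.90), a mesenchymal miRNA, and miR-21-5p (0.90), against a median of −0.03. The nearest to miR-21-3p was its own partner arm miR-21-5p (0.74), followed by miR-34a-5p (0.70), which p53 induces, and miR-1934-3p (0.70). For miR-222-3p miR-365-3p (0.76) came first, then its seed partner miR-221-3p (0.73) and miR-22-3p (0.67). On the series matrix values the r of these 12 pairs lay between 0.54 and 0.94.

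Other miRNAs known to act on a shared target were also compared between the groups. Of 6 miRNAs reported to repress Cdkn1b, the target of miR-221 and miR-222, 5 were tested and 0 passed by limma, with 4 higher, 1 lower and a median of 0.08. miR-24-3p differed by −0.28 (SE 0.24) and miR-148a-3p by 0.58 (SE 0.32). The messenger RNA of Cdkn1b was not measured by this array.

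Depth was compared with the levels as well. The number of detected miRNAs on an array had an r of 0.67 with miR-221-3p (permutation p = 0.0128, adjusted p = 0.0868 over 8 relations) and of 0.56 with miR-21-5p (permutation p = 0.0454, adjusted p = 0.121). The 75th percentile had an r of 0.63 with miR-221-3p (permutation p = 0.0217, adjusted p = 0.0868) and of 0.44 with miR-21-5p (permutation p = 0.128, adjusted p = 0.146). With miR-21-3p and miR-222-3p these r lay between 0.16 and 0.51. Over all 13 tumours none of the 8 passed adjustment. Without the 2 tumours farthest from the median of each depth measure, the r with the number detected was 0.77 for miR-221-3p and 0.76 for miR-222-3p. It was 0.67 for miR-21-5p and 0.46 for miR-21-3p. Those with the 75th percentile were then lower, 0.42, 0.24, 0.27 and 0.06 in the same order. Whether depth takes part in the relations among the members was not tested.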

How the data were processed

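Total RNA (100 ng) of 13 tumours was labelled with Cy3 and hybridised to Agilent mouse miRNA arrays of 1 colour, per the labels' protocols. The deposited scanner files held a background-subtracted spot intensity on a linear scale with no scaling between arrays, made by Feature Extraction 10.7.3.1 per the file headers and 10.5.1.1 per the submitters' processing notes. Detection and outlier marks were other deposited values, yes or no per spot, per the file headers. The authors' deposited series matrix held log2 values of equal distribution across arrays (median 3.82 in each), and was used as an alternative. For its background step and software, the sources used here name none.

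Of 47604 spots per array 2164 were controls and were left out, as were outlier spots (3.87%); 0 spots were saturated. Spots were averaged per probe and probes summed per miRNA. To scale an array, its sums were set relative to the 75th percentile of the 294 miRNAs that all 13 arrays detected and brought back to intensity units by the percentiles' geometric mean. Values under 17.2 (percentile 1 of detected values) took that floor before log2. Testing covered the 419 miRNAs found on 6 or more arrays, by lmFit and eBayes of limma 3.58.1 (R 4.3.3, version 1.17.8 of data.table), two-sided, with Benjamini-Hochberg adjustment over all 419 and a threshold of 0.05. Signals were ranked across miRNAs only to pick the list members to name, as brightness also depends on the probe. Ratios used all 1716 splits of the tumours into 6 and 7 (315 within slides), and correlations 100000 permutations, or all orders within slides and groups. Precision is limited by the number of arrays, with a median half-width of the 95% intervals of 0.626. The test was checked on simulated data.

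The members, lists and rules were chosen with earlier results of these data known. Named besides the members were their other arms and seed partners, the 3 tested miRNAs most correlated with each, and the 2 brightest tested members of each list. As alternatives the floor, scaling, background step, filter, probe summary, slide, array weights, variance model and replicate number were varied, the series matrix was used, and each tumour was left out. Chosen after seeing the data were the depth relations, the interaction of group and slide, pair correlations with group and slide means taken off, and list correlations on the series matrix and with normexp, which was run with an offset of 50 on median signals. miR-222-3p, planned for the test, missed the detection filter and was tested only without it. The result of 1 further list of miRNAs is not reported here.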

Additional observations from a re-analysis of the deposited data

Results flagged for a closer look

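In each group the highest and lowest tumours were compared with the rest. This covered the 4 members, the 3 within-tumour differences and the 5 list means. A tumour stood far from the others in 3 of the 24 sets. For normal values the cutoff marks about 1 in 20 by chance. That rate need not hold here, as the sets share tumours and several hold values at the floor. miR-222-3p was at a log2 level of 5.46 in deficient replicate 1, and the next deficient tumour was at 4.40, close to the floor of 4.10. The same tumour had the highest erythroid list mean of its group, 13.5 against 12.3 in the next. The vessel list mean was 7.23 in deficient replicate 2 against 8.35 in the next lowest, and this tumour also had the lowest miR-21-5p of all 13.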

How the results depend on the processing

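Under all alternatives run 0 miRNAs were called, and no member passed the threshold (adjusted p 0.644 to 0.998 over the tumours left out in turn). Replicate numbers did not pair the tumours: of 6 same-numbered pairs 3 had deviations correlated over 0.1 (r −0.22 to 0.19), and own number was the best match for 0 wild-type and 1 deficient tumour. With the replicate block the differences were −0.21 for miR-21-5p, −0.24 for miR-21-3p, −0.0259 for miR-221-3p and −0.21 for miR-222-3p, with 0 called. Deficient replicate 7 has no wild-type tumour of its number, so these differences are the same as without that tumour. Without the detection filter miR-222-3p had an interval of −0.95 to 0.45 (limma adjusted p = 1). The median group difference over all tested miRNAs was 0.0413 with scaling and 0.22 without it.

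The small group differences changed sign under several settings, and the cause was not tested. For miR-21-5p the difference was 0.0253 with no scaling, 0.13 with array weights and 0.37 within slide 1. For miR-21-3p it was 0.0173 on the series matrix, 0.15 with array weights and 0.36 within slide 1. For miR-221-3p it was 0.14 with no scaling, 0.0828 with the percentile over all miRNAs, 0.0483 with quantile normalization, 0.26 with the total gene signal, 0.0196 on the series matrix, 0.49 with array weights, 0.32 with slide as a block and 0.80 within slide 1. With 1 tumour left out miR-21-5p ranged from −0.35 to 0.0368, above 0 when wild-type replicate 5 or deficient replicate 2 was omitted, and miR-221-3p from −0.24 to 0.19, above 0 on omission of any of wild-type replicates 4, 5 and 6 or deficient replicates 2, 4 and 5. The within-tumour difference of the miR-21 arms was −0.0438 with normexp, −0.10 with the mean of log2 probe levels, −0.0850 on the series matrix and −0.17 with 4 times the floor, where miR-21-3p is at the floor throughout; it ranged from −0.0218 (without wild-type replicate 4) to 0.23. That of miR-221-3p and miR-222-3p was −0.0181, −0.0337, −0.20 and −0.0260 under the same 4 settings and −0.15 within slide 2. The −0.0260 rests on miR-221-3p in wild-type replicate 4, the only value of this pair above 4 times the floor. The within-tumour difference of miR-21-5p and the pair ranged from −0.17 to 0.12. It was above 0 on omission of wild-type replicates 1 and 5 and deficient replicates 1 and 2, each alone.

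Pair correlations depended most on the background step. With normexp r was −0.18 for the miR-21 arms, 0.14 for miR-21-5p with miR-221-3p, −0.16 for miR-21-5p with miR-222-3p and 0.91 for miR-21-3p with miR-222-3p. On the series matrix the last 2 were 0.59 and 0.65. The normexp levels of miR-21-3p and miR-222-3p both followed the inverse of the scaling factor, and the part of this in the 0.91 was not tested. Within slide 1, the r that no longer passed were 0.71 (miR-21 arms), 0.77 (miR-21-3p with miR-221-3p) and 0.65 (miR-221-3p with miR-222-3p); within slide 2 these were 0.75, 0.51 and 0.83, and miR-21-5p with miR-221-3p had 0.82; within wild-type tumours the 4 were 0.88, 0.84, 0.81 and 0.88; and within deficient tumours the first 3 were 0.50, 0.40 and 0.65, with −0.0594 for miR-21-3p with miR-222-3p. Fewer tumours entered these. Without the 2 farthest tumours the miR-21 arms had 0.64 and miR-21-3p with miR-221-3p 0.54, which ranged from 0.60 to 0.78 with 1 tumour left out.

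Of the list correlations that passed, those no longer passing are given as miR-21-5p with stroma and vessel, then miR-221-3p with leukocytes, stroma and vessel. They were 0.34, 0.45, 0.68, 0.58 and 0.58 within slide 2 (and 0.88 for miR-21-5p with leukocytes); 0.66, 0.85, 0.74, 0.76 and 0.59 within wild-type tumours; and 0.72, 0.58, 0.52, 0.0829 and 0.0972 with normexp. Without the 2 farthest tumours miR-21-5p had 0.71 and 0.54, and miR-221-3p 0.74 with stroma and 0.46 with vessel. With 1 tumour left out the ranges were 0.65 to 0.80 and 0.51 to 0.75 for miR-21-5p with stroma and vessel, and 0.54 to 0.78 for miR-221-3p with vessel. With no scaling the erythroid list passed with miR-221-3p (0.68) and miR-222-3p (0.70); on the series matrix miR-21-3p passed with leukocytes (0.75; 0.40 to 0.71 with 1 tumour left out) and miR-222-3p with stroma (0.77) and the erythroid list (0.64). Correlations that did not pass by Pearson's measure in the reported setting also changed sign. With muscle, miR-21-5p had 0.13 (no scaling), 0.12 (slide 1) and 0.0213 (without the 2 farthest); miR-21-3p −0.0225 (slide 1), −0.36 (wild type), −0.0770 (without the 2 farthest), −0.0494 (series matrix), −0.17 (normexp) and −0.0557 to 0.17 with 1 tumour left out; miR-221-3p 0.0334 (no scaling) and 0.0448 (slide 1); and miR-222-3p 0.0458 (wild type) and 0.0261 (without the 2 farthest). With the erythroid list, miR-21-5p had −0.0462 (without the 2 farthest), miR-21-3p 0.23 (no scaling), 0.38 (slide 1), 0.23 (wild type), 0.18 (series matrix) and −0.23 to 0.14 with 1 tumour left out, and miR-221-3p −0.16 and miR-222-3p −0.17 (normexp). miR-21-3p with stroma had −0.0877 (slide 2) and −0.31 (normexp), and with vessel −0.11 (normexp); miR-222-3p had −0.14 with stroma and −0.13 with vessel (normexp), and −0.14 with vessel without the 2 farthest.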
